A study of Mus musculus with 4 samples.

Results

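The aquaporins are a family of membrane channel proteins for water. Of the family, 10 genes are described here (Aqp1, Aqp2, Aqp3, Aqp4, Aqp5, Aqp6, Aqp7, Aqp8, Aqp9 and Aqp11), taken by their gene symbols from the 24346 symbols of each file. All 10 were found. RNA was sequenced from primary cultures of mouse inner ear cells, 2 samples labelled vestibular and 2 labelled cochlear. The vestibular organs sense head movement and the cochlea senses sound. The sources used here do not give strain, age, time in culture or any treatment. The labels do not say that the samples of a group came from separate cultures or animals, so each p-value measures only the spread between these libraries, which may be technical. The values are FPKM, in which the authors divided fragment numbers by the length of the transcript and the size of the library, so levels can be compared between genes. Where a pair of values is given for a group, it stands in the order of library 1, then library 2.

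Water crosses the epithelia of the inner ear between endolymph, the potassium-rich fluid over the sensory cells, and perilymph, the fluid around them. Aquaporins let water follow the ions that other proteins pump. Some members pass mainly water, and the aquaglyceroporins (Aqp3, Aqp7 and Aqp9 here) also pass glycerol. In the cochlea, Aqp1 is known from fibrocytes of the lateral wall, Aqp4 from epithelial cells beside the sensory cells, and Aqp5 from the outer sulcus. A pair of short motifs named for asparagine, proline and alanine, the NPA boxes, meet in the middle of the pore and are the signature of the family.

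The coding bases around both boxes are shown for 3 of the members with the highest levels, because the boxes separate the usual channels (Aqp1, Aqp5) from Aqp11, a divergent member of intracellular membranes. Each stretch holds 39 bases, written 5′ to 3′ on the strand of the gene, from GENCODE release M21 on GRCm38. Capitals mark the 3 codons of the box.
Aqp1, chr6:55336701-55336739, plus strand: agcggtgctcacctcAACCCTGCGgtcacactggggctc
Aqp1, chr6:55345822-55345860, plus strand: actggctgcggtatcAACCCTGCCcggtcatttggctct
Aqp5, chr15:99591461-99591499, plus strand: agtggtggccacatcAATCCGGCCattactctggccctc
Aqp5, chr15:99593255-99593293, plus strand: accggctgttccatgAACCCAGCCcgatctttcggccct
Aqp11, chr7:97737670-97737708, minus strand: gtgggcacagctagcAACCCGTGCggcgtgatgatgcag
Aqp11, chr7:97729038-97729076, minus strand: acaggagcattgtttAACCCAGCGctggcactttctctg
The boxes of Aqp1 and Aqp5 all read asparagine, proline, alanine. In Aqp11 the box nearer the start of the protein ends in a cysteine codon instead. Read the same way, Aqp2, Aqp3, Aqp6, Aqp8 and Aqp9 each held 2 NPA boxes and Aqp7 held 0.

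The widest gap between the cultures was in Aqp5. Aqp1 led the family in all 4 libraries, Aqp5 came next to it in the cochlear libraries, and Aqp4 and Aqp11 were low. The remaining 6 genes had mean values under 1 FPKM. No member passed the test between vestibular and cochlear cultures after adjustment over all genes. An exact permutation test (2-sided) of 1 gene in these 4 libraries cannot give a p below 0.333, so it can call no single gene.

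**Figure D1:**
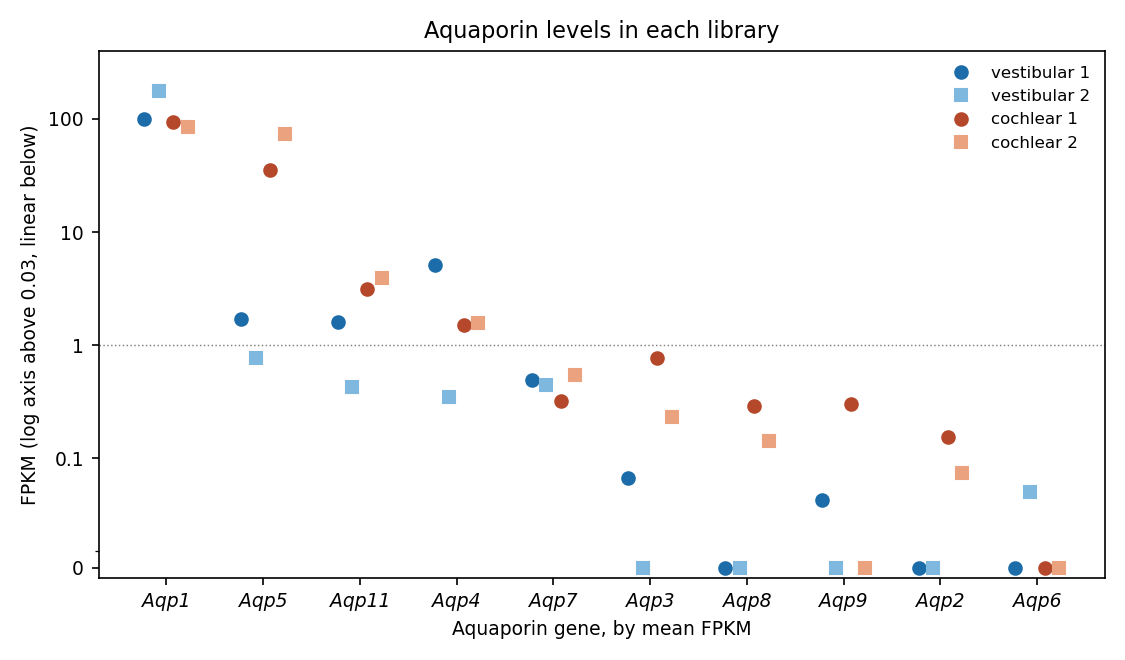
FPKM of the 10 aquaporin genes, ordered by mean, with 1 point per library (circles for samples numbered 1, squares for samples numbered 2). The axis is logarithmic above 0.03 and linear below it, the dotted line marks 1 FPKM, and Aqp5 shows the widest gap, with the cochlear libraries at 35.5 and 73.4 and the vestibular libraries at 1.72 and 0.771.

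Aqp1, the constitutive water channel known from red blood cells and kidney tubules, measured 98.8 and 175 FPKM in the vestibular pair and 93.1 and 85.0 FPKM in the cochlear pair. Vestibular library 2 was high and the other 3 lay close together, with the lower vestibular value 1.06 times the higher cochlear one. The vestibular mean was 137 ± 54.1 FPKM and the cochlear mean 89.0 ± 5.73 (SD, n = 2 each). Aqp1 exceeded 96.4% to 98.3% of all symbols in its library.

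On the log2(FPKM + 1) scale the difference of Aqp1, vestibular minus cochlear, was 0.56 (SE 0.32, 95% interval -0.35 to 1.48, limma adjusted p = 0.422). It rested on vestibular library 2: without that library it was 0.15, and without vestibular library 1 it was 0.97. Aqp1 lies at chr6:55336432-55348555 on the plus strand, with 4 exons and no other annotated gene overlapping it.

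Aqp5, the water channel known from salivary and tear glands and from the flat cells of lung alveoli, measured 35.5 and 73.4 FPKM in the cochlear pair but 1.72 and 0.771 FPKM in the vestibular pair. Both cochlear values lay above both vestibular ones, and the lower cochlear value was 20.7 times the higher vestibular one. Within groups the libraries differed 2.07-fold (cochlear) and 2.22-fold (vestibular). The means were 54.4 ± 26.8 and 1.24 ± 0.668 FPKM (SD, n = 2 each), a 43.8-fold ratio.

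The log2 difference of Aqp5 was -4.57 (SE 0.45, 95% interval -5.87 to -3.27), with an unadjusted p of 0.000788 and an adjusted p of 0.0955 in limma, so the gene did not pass the threshold of 0.05. Without vestibular 1, vestibular 2, cochlear 1 and cochlear 2 the difference was -4.88, -4.26, -5.08 and -4.06, and the limma adjusted p was 0.127, 0.255, 0.157 and 0.491. Aqp5 lies at chr15:99590782-99594829 on the plus strand.

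Aqp11, a divergent member of the endoplasmic reticulum whose loss in mice gives polycystic kidneys, measured 3.15 and 3.89 FPKM in the cochlear pair but 1.60 and 0.423 FPKM in the vestibular pair. The groups did not overlap, and vestibular library 2 was lowest. The log2 difference was -1.23 (SE 0.37, unadjusted p 0.0341, limma adjusted p = 0.244). Without vestibular library 2 it was -0.79. Aqp11 lies at chr7:97724006-97738289 on the minus strand.

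Aqp4, the channel of astrocyte endfeet in the brain, measured 5.13 FPKM in vestibular library 1, 0.348 in vestibular library 2, and 1.51 and 1.58 in the cochlear libraries. The vestibular libraries differed 14.8-fold and lay on either side of the cochlear pair, which differed 1.04-fold. The log2 difference was 0.18 (SE 0.82, limma adjusted p = 0.924). It was 1.27 without vestibular library 2, and -0.92 without vestibular library 1, so its direction depended on which library was used. It also turned to -0.10 with a pseudocount of 0.1.

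These 4 genes are the ones with a mean of at least 1 FPKM over the 4 libraries, the limit for testing. Limma called 0 of the 4, beside 4 of all 13200 genes (0.0303%). Of the 4, 2 had an unadjusted p under 0.05 (Aqp5 and Aqp11), both higher in cochlear cultures, where 18.2% of all genes tested had such a p and 10.6% had it with the higher level in cochlear cultures. The groups did not overlap in 3 of the 4 (Aqp1, Aqp5 and Aqp11), against 55.3% of all genes tested. The median log2 difference of the 4 was -0.53, and that of all genes tested was 0.01. Without vestibular 1, vestibular 2, cochlear 1 and cochlear 2 the count at an unadjusted p under 0.05 was 4, 3, 1 and 1, and the median was -1.29, -0.32, -0.59 and -0.46. In limma the unadjusted p of Aqp11 was 0.0888 without cochlear 1, 0.133 without cochlear 2, 0.055 with a pseudocount of 0.1 and 0.0607 with the sample number as a block.

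**Figure D2:**
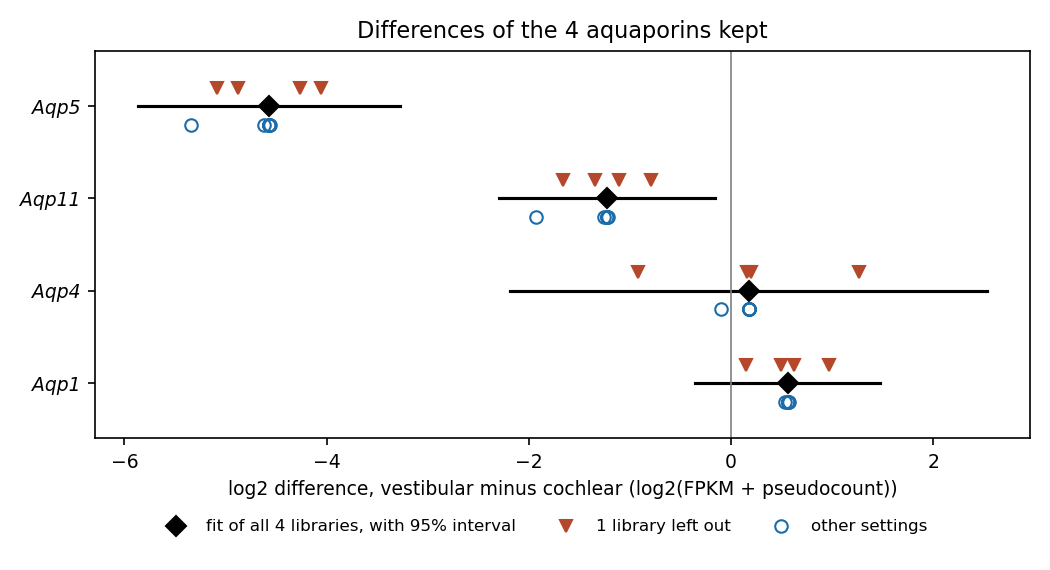
Log2 difference, vestibular minus cochlear, of the 4 aquaporins tested. Diamonds with bars are the fit of all 4 libraries with its 95% interval, triangles leave out 1 library, and open circles are the other settings (pseudocount, filter, scaling, trend and block). Every point of Aqp5 lies between -5.35 and -4.06, while the triangles of Aqp4 lie on both sides of 0.

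The make-up of the family's RNA was taken from the same values. The summed FPKM of the 10 genes was 107.9 and 177.4 for the vestibular pair, against 135.0 and 164.8 for the cochlear pair, so the sums of the groups overlapped. Aqp1 made up 91.6% and 98.9% of this sum in the vestibular libraries and 68.9% and 51.5% in the cochlear libraries. Aqp5 made up 1.59% and 0.435% against 26.3% and 44.5%. The third largest share was that of Aqp4 in vestibular library 1 (4.76%), of Aqp7 in vestibular library 2 (0.252%), and of Aqp11 in the cochlear libraries (2.33% and 2.36%).

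**Figure D3:**
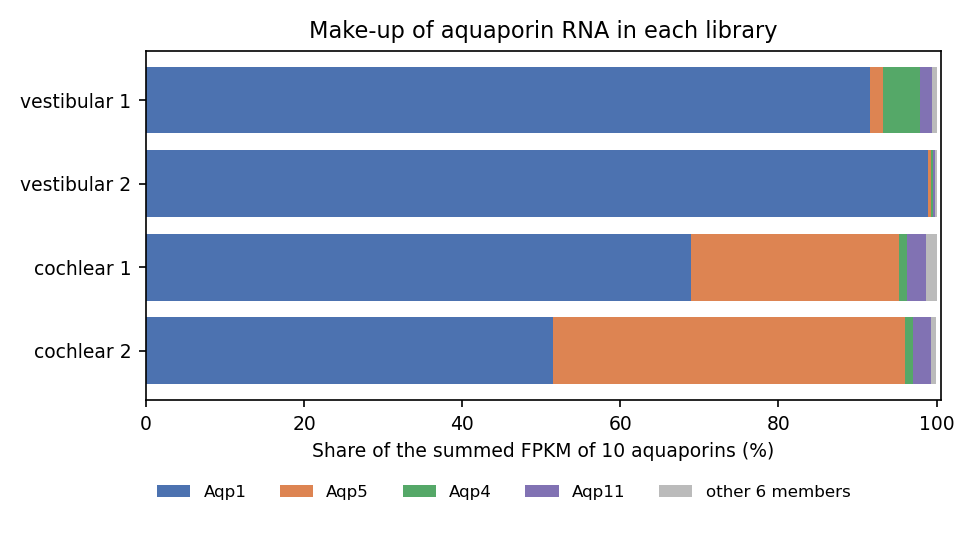
Share of each aquaporin in the summed FPKM of the 10 genes (horizontal axis, percent), with 1 bar per library. Aqp1 fills more than 90% of both vestibular bars, and Aqp5 fills 26.3% and 44.5% of the cochlear bars.

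By their means, the order of levels in cochlear cultures was Aqp1, Aqp5, Aqp11 and Aqp4, and the ranges of neighbours in that order did not overlap. Below them Aqp3 and Aqp7 overlapped. In vestibular cultures Aqp1 stood apart from Aqp4, Aqp5, Aqp11 and Aqp7, and each of these overlapped with its neighbour in the order.

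The aquaglyceroporins were all under 1 FPKM. Aqp7, the glycerol channel of fat cells, measured 0.497 and 0.447 FPKM in the vestibular pair and 0.319 and 0.545 FPKM in the cochlear pair, with overlapping groups. Aqp3, known from skin and from the kidney collecting duct, stood at 0.0673 FPKM in vestibular library 1 and was listed at 0 in vestibular library 2, against 0.772 and 0.232 in the cochlear libraries. Aqp9, known from liver and white blood cells, stood at 0.0429 FPKM in vestibular library 1 and 0.303 in cochlear library 1, and was listed at 0 in the other 2.

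Of the remaining members, Aqp8, known from colon and pancreas, measured 0.289 and 0.141 FPKM in the cochlear pair and was listed at 0 in both vestibular libraries. Aqp2, the channel that vasopressin moves to the membrane of kidney collecting duct cells and that is also known from the endolymphatic sac, measured 0.153 and 0.0747 FPKM in the cochlear pair, and was listed at 0 in both vestibular libraries. Aqp6, a channel of intracellular vesicles in the kidney, had 0.0508 FPKM in vestibular library 2 and was listed at 0 in the other 3. A listed 0 can be a failed estimate, since the ribosomal protein gene Rpl26 was at 0 in all 4 libraries. Outside the 10 genes, Aqp12 was listed at 0 in all 4 libraries and Mip, the lens aquaporin, was at most 0.0973 FPKM.

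The low values keep a trace of whole fragments. The FPKM of 1 fragment in one library relative to another was estimated from short noncoding RNA genes whose values stood in ratios of whole numbers (tolerance 0.1%). Between vestibular 1 and cochlear 2 these were 24 of 34 such genes, and 15 of 30, 16 of 30, 18 of 31, 16 of 28 and 15 of 28 between the other pairs of libraries. The estimate ranged 1.16-fold over the libraries. After that correction the values of 5 low members stood in ratios of small whole numbers within 0.5%, when 1 to 30 were tried for the lowest value. The smallest such numbers were 11, 11, 8 and 14 fragments for Aqp7 in vestibular 1, vestibular 2, cochlear 1 and cochlear 2. They were 1 in vestibular 1, 13 in cochlear 1 and 4 in cochlear 2 for Aqp3, and 1 in vestibular 1 and 8 in cochlear 1 for Aqp9. Aqp2 and Aqp8 each gave 2 in cochlear 1 and 1 in cochlear 2. A common multiple of these numbers would give the same ratios, so the fragment numbers themselves are unknown. With a search up to 30, ratios as large as those of Aqp3 and Aqp9 had to fit some whole numbers whatever the values. These 5 genes and Aqp6 lay under the limit for testing and are given as values only.

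Aqp2, Aqp5 and Aqp6 are neighbours on the plus strand of chromosome 15, and Aqp5 is the middle gene. The gap was 6234 bases between Aqp2 and Aqp5 and 6570 bases between Aqp5 and Aqp6. In the cochlear libraries Aqp5 had 35.5 and 73.4 FPKM, while Aqp2 had 0.153 and 0.0747 and Aqp6 was listed at 0 in both. High values were thus found at the middle gene and not at its neighbours. Aqp3 and Aqp7 are neighbours on the minus strand of chromosome 4, with 44582 bases and no other protein-coding gene between them, and both were under 1 FPKM in all 4 libraries.

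**Figure D4:**
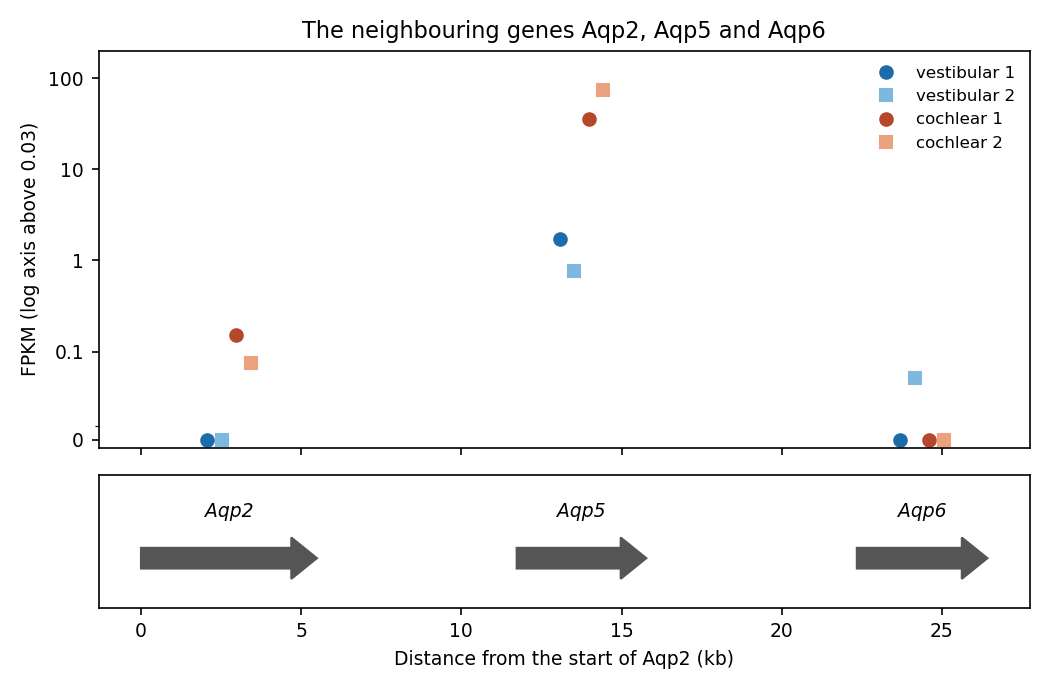
FPKM of Aqp2, Aqp5 and Aqp6 in each library (top, logarithmic above 0.03 and linear below) over a map of the genes drawn to scale by distance from the start of Aqp2, with arrows pointing in the direction of transcription. Aqp5 reaches 73.4 FPKM, while the highest value of the neighbours is 0.153.

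Levels of Aqp5 and Aqp1 were set beside markers of the cells the cultures could hold. In bulk RNA, fewer cells of a type and less RNA per cell cannot be told apart. The summed FPKM of 14 epithelial markers was 1073 and 112 for the vestibular pair, against 2093 and 2519 for the cochlear pair. In 12 of the 13 epithelial markers tested both cochlear libraries lay above both vestibular ones (28.4% of all genes tested did so), and 5 had an unadjusted p under 0.05, all higher in cochlear cultures (10.6% of all genes tested). That count was 13, 9, 2 and 1 without vestibular 1, vestibular 2, cochlear 1 and cochlear 2. The keratin gene Krt8 measured 297 and 10.5 FPKM in the vestibular pair, against 663 and 687 in the cochlear pair. Per 1000 FPKM of the epithelial sum, Aqp5 was 1.6 and 6.89 for the vestibular pair, against 16.9 and 29.1 for the cochlear pair. Both cochlear ratios lay above both vestibular ones, and the vestibular ratios rested on low Aqp5 values (1.72 and 0.771 FPKM). The part of epithelial content in the level of Aqp5 was not tested.

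Fibroblast markers (10 genes) summed to 4471 and 6969 FPKM for the vestibular pair, against 2461 and 1471 for the cochlear pair. Both vestibular libraries lay above both cochlear ones in 7 of these 10 genes (26.9% of all genes tested did so). Otic fibrocyte markers (11 genes) summed to 1497 and 4105 FPKM for the vestibular pair, against 1520 and 1747 for the cochlear pair, so that vestibular library 2 was high in them as in Aqp1. It was also high in the sums of cartilage markers (4234 FPKM, against 769, 221 and 221 in vestibular 1, cochlear 1 and cochlear 2) and of meningeal markers (4140, against 576, 271 and 313). Most of its cartilage sum was Col2a1 (2370), Col9a1 (621) and Col11a1 (546), while Comp, Matn1 and Matn3 were under 1 FPKM in every library. Most of its meningeal sum was Ptgds (3400). Crabp2 was lowest in vestibular library 2 (9.93) and Slc6a13 was at most 0.0951, while the other meningeal markers were highest there. Per 1000 FPKM of the fibroblast sum, Aqp1 was 22.1 and 25.2 for the vestibular pair, against 37.8 and 57.8 for the cochlear pair, the reverse of the order of its levels. The part of these cells in the level of Aqp1 was not tested.

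Red blood cells and blood vessels are other known sites of Aqp1. The 6 red blood cell genes in the files summed to at most 0.261 FPKM, and 5 of the 6 were listed at 0 throughout. The 9 endothelial markers summed to 28.7 and 54.4 FPKM for the vestibular pair, against 123 and 302 for the cochlear pair. Most of the cochlear sum was Emcn (112 and 287 FPKM, against 14.5 and 34.3 in the vestibular pair). Cdh5 was highest in vestibular library 2, the library with the highest Aqp1, at 10.7 FPKM, and was 0.915 in vestibular 1, 0.293 in cochlear 1 and 0.0955 in cochlear 2. Egfl7 ran from 4.81 to 6.68 FPKM, Tek from 1.57 to 6.0 and Kdr from 0.808 to 4.85, while Pecam1 and Tie1 were at most 0.155 and Cldn5 was listed at 0 throughout. Macrophage markers summed to 8819 and 6692 FPKM for the vestibular pair, to 6780 in cochlear library 1 and to 30.1 in cochlear library 2. Aqp1 was 85.0 FPKM in that last library and Aqp5 was 73.4.

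Markers of supporting and sulcus cells summed to 67.9 and 64.6 FPKM for the vestibular pair, against 141 and 109 for the cochlear pair. Without Slc26a4, which the list shares with the next one, the sums were 66.0 and 63.7 against 80.5 and 62.7 FPKM. Those of the endolymphatic sac, a site known for Aqp2, summed to 3.49 and 14.4 against 61.2 and 46.6 FPKM. In the cochlear pair nearly all of the sum was Slc26a4 (60.5 and 46.3). Atp6v0a4 lay the other way, with 1.56 and 13.3 FPKM in the vestibular pair against 0.458 and 0.122. The sac's regulator Foxi1 was at most 0.132. Fat cell markers, set beside Aqp7, summed to 77.8 and 40.9 against 119 and 6.22 FPKM. Cochlear library 1 held the highest Lpl (86.5 FPKM), Fabp4 (22.6), Cfd (4.38), Adipoq (4.15) and Plin1 (1.34), and Cidec and Lep were under 0.5 in every library. Aqp7 was lowest in that library. Neutrophil markers, set beside Aqp9, summed to at most 3.13 FPKM, and skeletal muscle markers to at most 3.88. The part of these cells in the low aquaporins was not tested.

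Glial markers summed to 94.9 and 209 FPKM for the vestibular pair, against 152 and 141 for the cochlear pair. The astrocyte filament gene Gfap, chosen after its values were seen, stood at 12.5 FPKM in vestibular library 1, the library with the highest Aqp4, and at 1.17, 0.515 and 0.216 in vestibular 2, cochlear 1 and cochlear 2. The part of these cells in the level of Aqp4 was not tested.

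**Figure D5:**
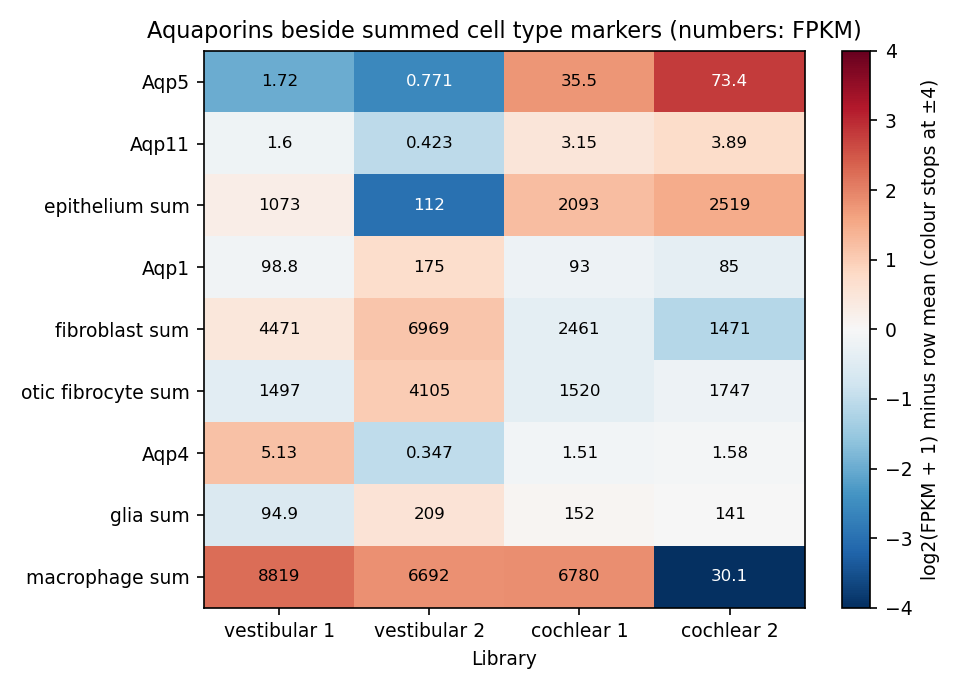
FPKM of 4 aquaporins and summed FPKM of marker lists in each library (columns), coloured by log2(FPKM + 1) minus the row mean, with the FPKM printed in each box. Aqp5 is low in both vestibular libraries, while the epithelial sum is low mainly in vestibular library 2 (112).

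Genes of the most similar pattern were taken by the root mean square distance of log2(FPKM + 1) values over the 4 libraries, each gene centred on its mean, among 12378 genes. For Aqp5 they were the potassium channel gene Kcna2 (distance 0.323) and Rhpn2 (0.381). Rhpn2 measured 5.15 and 2.33 FPKM in the vestibular pair, against 43.9 and 91.7 in the cochlear pair. No gene came as close to Aqp5 as the nearest genes came to the other 3 aquaporins. The distance is not scaled to a gene's spread, so it tends to be larger for a gene that varies more. Aqp5 ran from 0.771 to 73.4 FPKM, while Aqp1 ran from 85.0 to 175.

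For Aqp1 the nearest were Ctnnbip1, which encodes an inhibitor of beta-catenin (distance 0.0182), the lamin B receptor gene Lbr (0.0308) and Mapkbp1 (0.0321). For Aqp4 they were the corneodesmosin gene Cdsn (0.0445), the serine protease gene Prss23 (0.14) and Clca3a1 (0.147). Cdsn measured 17.1 and 2.94 FPKM in the vestibular pair, against 5.94 and 6.72 in the cochlear pair. For Aqp11 they were Slc37a1 (0.0528), Stap2 (0.0532) and the tuftelin gene Tuft1 (0.0538). With 4 libraries many genes share a pattern, and these distances are descriptions.

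Partner genes of the family were read from the same fit, and limma called 0 of them. Among 17 genes of cell volume regulation, 7 had an unadjusted p under 0.05 with the higher level in cochlear cultures and 1 with the higher level in vestibular cultures, where 10.6% and 7.61% of all genes tested did so. Their median log2 difference was -0.43, against 0.01 for all genes. These counts were 6 and 4 without vestibular 1, 5 and 0 without vestibular 2, 5 and 0 without cochlear 1, and 4 and 0 without cochlear 2. Stk39, a kinase that regulates chloride cotransporters, measured 24.0 and 31.9 FPKM in the vestibular pair, against 105 and 134 in the cochlear pair (limma adjusted p = 0.0955). Slc12a7, a potassium-chloride cotransporter gene, stood at 30.5 and 23.1 against 62.0 and 69.3. The volume-regulated anion channel subunit Lrrc8e had 1.08 and 0.334 against 6.66 and 6.61 FPKM, and its relative Lrrc8b had 9.82 and 9.80 against 18.3 and 24.9. The 1 gene with such a p and the higher level in vestibular cultures was Slc12a2, with 32.2 and 50.2 against 23.7 and 20.8 FPKM.

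The dystrophin complex anchors Aqp4 to the membrane in brain and muscle. Of its 13 genes tested, 3 had an unadjusted p under 0.05 with the higher level in vestibular and 4 with the higher level in cochlear cultures, beside 7.61% and 10.6% of all genes tested (median log2 difference 0.29). These counts were 5 and 2 without vestibular 1, 2 and 3 without vestibular 2, 1 and 5 without cochlear 1, and 0 and 2 without cochlear 2. The median also turned, to -0.06 without vestibular 2. The dystrobrevin gene Dtna measured 10.7 and 5.95 FPKM in the vestibular pair, against 45.5 and 45.2 in the cochlear pair, and the syntrophin gene Sntb1 at 5.06 and 4.31 against 16.9 and 23.5. Utrn had 19.6 and 20.6 against 27.1 and 29.8 FPKM. The sarcoglycan gene Sgcb lay the other way, with 12.4 and 15.7 against 7.82 and 6.30.

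Carbonic anhydrases and bicarbonate transporters, which set the ions that water follows, were split, with 4 of 12 at an unadjusted p under 0.05 in each direction, beside 7.61% of all genes tested with the higher level in vestibular and 10.6% in cochlear cultures (median log2 difference 0.11, and -0.25 without cochlear 1). Without cochlear 1 there were 1 with the higher level in vestibular and 2 in cochlear cultures, and without cochlear 2 there were 2 and 3. Car13 measured 35.9 and 39.4 FPKM in the vestibular pair, against 129 and 142 in the cochlear pair (limma adjusted p = 0.0665). Car2 had 21.6 and 27.7 against 51.0 and 94.5 FPKM, and Car12 had 6.98 and 2.93 against 28.8 and 17.2. The sodium bicarbonate cotransporter gene Slc4a4 had 10.8 and 16.0 against 4.17 and 2.13.

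The other 3 partner lists are set beside the 18.2% of all genes tested with an unadjusted p under 0.05 in either direction. Of 10 osmolyte and tonicity genes, 1 had an unadjusted p under 0.05, the hormone-responsive kinase gene Sgk1 (32.2 and 26.3 FPKM in vestibular, 70.7 and 70.7 in cochlear libraries). Of 18 genes of vasopressin signalling and vesicle traffic, 1 did, the myosin gene Myo5b (2.96 and 0.702 against 9.95 and 11.0 FPKM). The vasopressin receptor gene Avpr2, which acts upstream of Aqp2 in the kidney, was at most 0.427 FPKM. Of 9 glycerol handling genes, 1 did, Pparg (4.84 and 3.38 against 2.41 and 2.01 FPKM). The median log2 differences of these 3 lists were 0.03, 0.04 and 0.18. Without vestibular 1, vestibular 2, cochlear 1 and cochlear 2 the counts at an unadjusted p under 0.05 were 2, 1, 3 and 2 for the osmolyte list, 2, 2, 3 and 0 for the vasopressin list, and 0, 2, 0 and 0 for the glycerol list. The median of the osmolyte list was 0.28 without cochlear 2. That of the vasopressin list was -0.05 without vestibular 2 and -0.04 without cochlear 2.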

How the data were processed

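The authors deposited 1 FPKM value per gene symbol and sample, per the file headers. Libraries were made from mRNA with a stranded kit, per the labels' protocols. The submitters' processing notes name the mm10 build, Cuffdiff 2.2.1, TopHat2 2.1.1, SAMtools 0.1.18 and Bowtie2 2.2.8. Settings, annotation and scaling between libraries are not stated in the sources used here, so how fragments were split between transcripts of a gene is unknown. FPKM totals ran from 479380 to 519122 per library. The files give no fragment numbers, so depth is known only relatively, and no counting interval is given.

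Genes with a mean of at least 1 FPKM (13200) were compared as log2(FPKM + 1), a scale that understates differences of low genes, with limma 3.58.1 in R 4.3.3 (eBayes with a mean-variance trend, 2-sided, Benjamini-Hochberg over all genes tested, threshold 0.05, prior degrees of freedom 1.71). All 4 libraries entered the fit. The fit was tested on simulated data. Members and lists were chosen with earlier results of these data known. Per partner list, up to 4 genes with the smallest p were named, and per marker list up to 3 with the highest mean. Slc12a2 and other genes listed below were named beyond these limits. For each aquaporin tested, up to 3 genes of the most similar pattern were named, and 1 such gene is not reported here. Pecam1, Tie1, Cldn5, Tek, Kdr, Foxi1, Adipoq, Plin1, Lep, Cidec, Gfap, Avpr2, Rpl26, Mip and Aqp12 were named after their values were seen. So were Slc12a2, Comp, Matn1, Matn3, Crabp2 and Slc6a13. Positions and coding sequences came from GENCODE M21 on GRCm38 (mm10). Alternatives covered the pseudocount, the filter, scaling, the trend, a replicate block and leaving out each library, and lists without each library, which was added after seeing the data. Protein sequences were not used here.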

Additional observations from a re-analysis of the deposited data

How the results depend on the processing

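Under the 11 alternatives limma called 0 aquaporins in each. Aqp1, Aqp5 and Aqp11 kept their direction in every alternative in which they were tested, and Aqp4 turned to -0.10 with a pseudocount of 0.1 and ran from -0.92 without vestibular replicate 1 to 1.27 without vestibular replicate 2. For Aqp5 the difference ran from -5.35 (pseudocount of 0.1) to -4.06 (without cochlear replicate 2), and its limma adjusted p from 0.0858 (quantile normalization) to 0.491 (without cochlear replicate 2). Over all genes, the 4 calls became 2 with no filter on low values (more genes tested), 0 with the replicate block, and 0 to 0 when each library was left out in turn. A lone library in those fits was assumed to vary like the other group. The shared sample numbers are not said to mark a shared animal or day, and the deviations of same-numbered libraries correlated at 0.0432 across genes, so the block is given only here; with it the limma adjusted p of Aqp5 was 0.272. With a minimum mean of 5 FPKM, Aqp4 and Aqp11 were not tested. Fragment numbers are unknown, which limits the reading of members under 1 FPKM.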
